A study of Mus musculus with 15 samples.

Results

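Genes of the Wnt signalling pathway were examined in mouse embryonic stem cells (ESCs) depleted of TET1 or TET2. They were taken from the deposited gene table by symbol and not by a cut on their values, but with earlier results of these data known. The list held every gene whose symbol starts with Wnt or Fzd and a digit (19 and 10 genes), and 20 genes listed by name. This gave 49 of the 26061 genes of the table. By role they were 19 ligands, 12 receptors, 7 secreted inhibitors, the acyltransferase gene Porcn, 4 genes of the cytoplasmic beta-catenin machinery, 3 TCF/LEF transcription factors and 3 further feedback targets.

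The cells were E14 ESCs of the 129/Ola background, grown without feeders on gelatin in medium with 15% serum and 1000 U/ml LIF, a cytokine that holds ESCs undifferentiated. All 3 groups carried a lentiviral pLKO.1 vector that makes a short hairpin RNA: shScr a non-targeting hairpin, shTet1 a hairpin against Tet1 and shTet2 a hairpin against Tet2. Puromycin at 1 µg/ml was added 24 hours after infection, and RNA was collected after 3 days of selection, so that the controls had also been infected and selected. This dose is from the labels, and the methods of the study give another. Each group held 5 libraries of directional, rRNA-depleted RNA-seq. There was 1 hairpin per gene, so an effect of the hairpin and of the lost TET cannot be told apart. The labels do not state that the libraries of a group came from separate infections, and the p-values measure the spread between these libraries.

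Wnt ligands are secreted lipid-modified proteins that bind a Frizzled receptor together with the co-receptor LRP5 or LRP6. Binding stops a complex of AXIN, APC and GSK3 from marking beta-catenin for destruction, and beta-catenin then enters the nucleus and activates genes through TCF/LEF factors. Several of those target genes, such as Axin2, Nkd1 and Notum, encode inhibitors of the same pathway. In ESCs, Wnt signalling supports self-renewal, and it drives formation of mesoderm and endoderm as the cells differentiate. TET enzymes oxidise methylated cytosine, which lies mostly at CpG dinucleotides.

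Reads in genes ranged from 15258291 to 35432425 per library. Tet1 had 3877 to 5418 normalised reads in shTet1 against 13120 to 19408 in shScr, and Tet2 had 2192 to 3081 in shTet2 against 9077 to 11714 in shScr, with no overlap of the groups in either case. Both targets therefore matched their labels. The 10 ESC marker genes summed to 93147 to 143797 normalised reads per library, and the 8 fibroblast markers to 109 to 315, with Lum at 0 in all 15 libraries. In 4 libraries (shScr replicate 4, shTet1 replicates 3 and 4, shTet2 replicate 4), 1448 genes for olfactory and vomeronasal receptors, proteins of sensory neurons, took 54.5 to 64.7 RPM (gene reads as the total), against 11.1 to 26.5 RPM in the other 11. These 4 libraries stood apart, and the differences of Notum, Sfrp2, Fzd7, Fzd10, Wnt6, Wnt8b and Ryk between the groups compared below are also given without them.

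Levels between genes were compared as normalised reads per kb of annotated exon, averaged over the 15 libraries. The machinery downstream of the receptor was abundant and the ligands were scarce. Ctnnb1, which encodes beta-catenin, had by far the highest level at 5643 per kb (4981 to 6191 over libraries). The scaffold gene Axin1 followed at 389, Apc at 332 and the kinase gene Gsk3b at 97.0. Among receptors, Fzd5 (373 per kb), the co-receptor gene Lrp6 (349) and Fzd7 (286) led, and their ranges over libraries overlapped (242 to 547, 280 to 443 and 176 to 436). Lrp5 (101) and Fzd10 (92.1) came next, and Fzd1 was the lowest receptor at 3.73.

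Ligands lay lower. Their median was 2.21 per kb against 48.8 for receptors and 51.3 for secreted inhibitors. Wnt8a was the highest ligand at 29.4 per kb, but it varied from 3.81 to 77.1 between libraries and so overlapped Wnt6 (11.3), Wnt5a (10.7) and Wnt5b (9.84). Olfactory and vomeronasal receptor genes had a 95th percentile of 0.693 per kb, and 14 of 19 ligands were above it, as was each member of the other roles. No read of Wnt1 was seen among 339842870 gene reads, which allows up to 0.00883 RPM (counting error only), and Wnt2 had 1 read in all. These 2 genes were too low to test. The other 47 members passed the filter on low values.

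**Figure D1:**
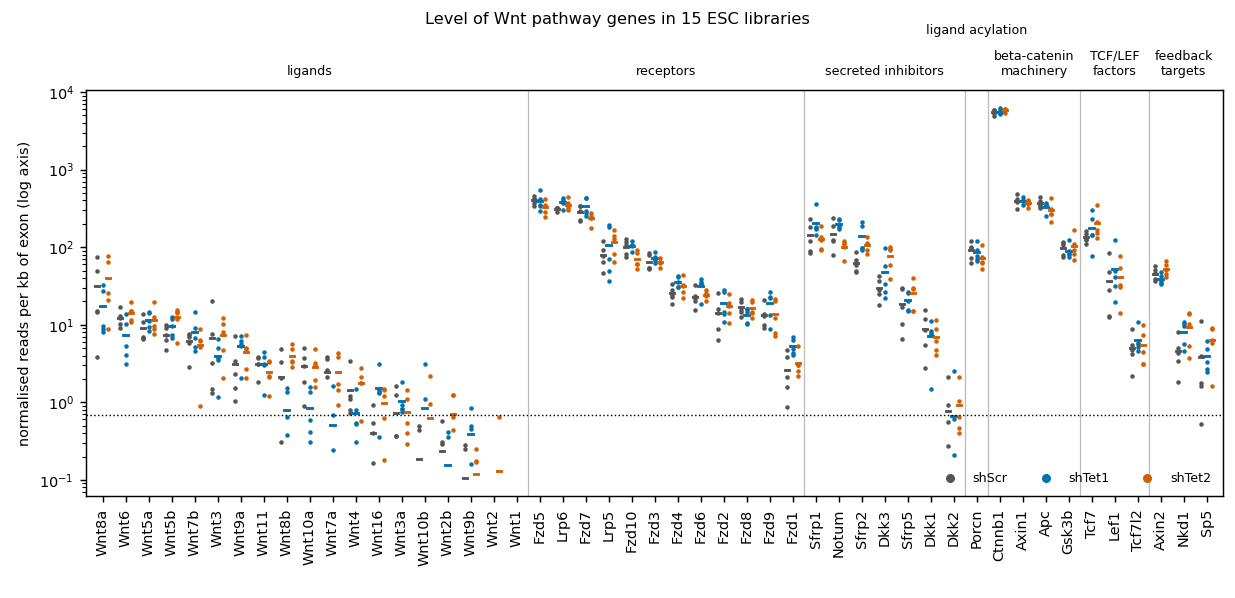
Level of the 49 Wnt pathway genes as normalised reads per kb of exon on a log axis, ordered by role and then by level. Points are single libraries, short bars are group means of 5 libraries, values of 0 are not drawn, and the dotted line at 0.693 per kb is the 95th percentile of 1448 olfactory and vomeronasal receptor genes. Ctnnb1 is at 4981 or more in each library, whereas 5 ligands average below the line.

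Secreted inhibitors were expressed at levels like those of the receptors. Sfrp1 (158 per kb), which encodes a Frizzled-related decoy that binds Wnt ligands, and Notum (150), which encodes an esterase that removes the lipid from them, were highest. Sfrp2 (102) and Dkk3 (51.3) were intermediate, and Dkk2 was the lowest at 0.792. Tcf7 (172) led the TCF/LEF factors over Lef1 (43.8) and Tcf7l2 (5.66). Some levels depended on the gene model. When only the longest transcript was used for the length, 5 of 49 members moved by more than their SD over libraries. By that length Lef1 was at 104 per kb, Tcf7l2 at 11.5, Axin2 at 59.1 and Ctnnb1 at 7941. Apc was then at 424, above Axin1 at 394. Of the feedback targets, Axin2 was at 45.7 per kb, Nkd1 at 7.38 and Sp5 at 4.69.

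Promoter sequences were available from RefSeq (build GRCm38.p6, another build than the mm9 genome of the expression data) for 33 of 49 members, as 42 windows of 300 bases that run from 250 before to 50 after a transcript start. The median window of a member held 24 CpG, against 7 over all 32851 windows of the table. Windows of 3 members discussed below are shown with each CpG in capitals, since CpG is the site at which TET enzymes act. Sfrp2 (chr3:83766071-83766370, plus strand, 22 CpG) and Fzd7 (chr1:59481897-59482196, plus strand, 24 CpG) are CpG-rich, whereas Wnt8b (chr19:44493222-44493521, plus strand, 6 CpG) is CpG-poor.
Sfrp2: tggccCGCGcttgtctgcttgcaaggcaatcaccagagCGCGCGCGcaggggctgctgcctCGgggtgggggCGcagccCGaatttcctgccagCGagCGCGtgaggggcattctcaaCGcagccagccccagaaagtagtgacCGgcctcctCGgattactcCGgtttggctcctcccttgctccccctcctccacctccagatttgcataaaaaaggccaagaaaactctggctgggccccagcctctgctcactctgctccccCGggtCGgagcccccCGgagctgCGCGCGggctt
Fzd7: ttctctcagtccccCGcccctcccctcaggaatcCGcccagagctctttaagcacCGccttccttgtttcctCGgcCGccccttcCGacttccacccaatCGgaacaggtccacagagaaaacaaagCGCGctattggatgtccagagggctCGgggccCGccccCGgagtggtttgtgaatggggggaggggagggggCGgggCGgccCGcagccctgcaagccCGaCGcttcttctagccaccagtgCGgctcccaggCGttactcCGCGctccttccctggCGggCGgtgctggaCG
Wnt8b: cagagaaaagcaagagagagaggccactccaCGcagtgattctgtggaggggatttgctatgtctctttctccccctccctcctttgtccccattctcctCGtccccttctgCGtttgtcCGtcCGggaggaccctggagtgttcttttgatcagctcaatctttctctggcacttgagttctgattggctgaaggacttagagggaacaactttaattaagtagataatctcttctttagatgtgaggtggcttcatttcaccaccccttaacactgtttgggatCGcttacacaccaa
DNA methylation was not analysed here, and these sequences describe the genes only.

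The windows were searched on both strands for 4 spellings of the TCF/LEF recognition motif, namely CTTTGAA or CTTTGAT and also CTTTGTA or CTTTGTT. At least 1 was found in 19.0% of the members' windows (8 of 42) and in 16.9% of all windows, so that the members held the motif about as often as promoters in general. Sp5, a direct target of the pathway, held a pair, at 222 bases before the start on the opposite strand and at 104 bases before the start on the same strand. Its window (chr2:70474673-70474972, plus strand) is shown with both matches in capitals.
Sp5: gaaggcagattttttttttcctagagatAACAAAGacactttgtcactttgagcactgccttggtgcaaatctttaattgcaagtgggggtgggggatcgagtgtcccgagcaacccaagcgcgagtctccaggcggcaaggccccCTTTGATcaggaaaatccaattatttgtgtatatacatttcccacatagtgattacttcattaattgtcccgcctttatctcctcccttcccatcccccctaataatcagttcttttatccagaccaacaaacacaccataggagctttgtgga
Axin2, the best known feedback target, had no match in its window, and Fzd7 had 1. A match is a stretch of letters and not a measured binding site, and no match says only that these letters are not in the window.

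To ask whether depletion of either TET altered the pathway, the groups were compared on the deposited variance-stabilised values, which approach log2 for well-covered genes and understate differences of scarce ones. In limma with Benjamini-Hochberg adjustment over 19490 genes, 0 of 47 members passed an adjusted p of 0.05 between shTet1 and shScr, where 0.0718% of all genes did. At an unadjusted p under 0.05, 8 members (17.0%) passed, against 11.8% of all genes. The members' median difference was 0.15, beside 0.01 over all genes, and 30 of 47 members (63.8%) had a difference above 0, as did 52.4% of all genes. The smallest adjusted p was 0.0941, for Sfrp2. Same-numbered libraries of these groups deviated together from their group means. With the replicate number as a block, 1 member (Sfrp2) and 4.8% of all genes passed.

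Between shTet2 and shScr, 0 of 47 members passed, where 0.39% of all genes did. At an unadjusted p under 0.05, 6 members (12.8%) passed, against 11.6% of all genes. The median difference was 0.11 over members and 0.04 over all genes, and 34 of 47 members were above 0, as were 56.8% of all genes. Centring each library on its median gene moved the members' median to 0.0020 and that of all genes to -0.07. The smallest adjusted p was 0.119, for Dkk3. A count model (voom in limma, on reads recovered from the values) also called 0 members in both comparisons with shScr, and Notum alone between the knockdowns. With the replicate number as a block, 2 members (Sfrp2 and Dkk3, or 4.26%) and 840 of 19490 genes passed between shTet2 and shScr. The numbers were not taken to pair these 2 groups, as given in the methods below.

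Between shTet2 and shTet1, 1 of 47 members passed, where 4.24% of all genes did. That member was Notum, which was lower in shTet2, as were 1.36% of all genes tested at that threshold. At an unadjusted p under 0.05, 10 members (21.3%) passed, against 15.7% of all genes, and 21 of 47 were above 0, as were 52.7% of all genes. With the replicate block, 5 members (10.6%) passed, beside 11.2% of all genes: Notum, Fzd7 and Fzd10 were lower in shTet2, and Wnt6 and Wnt8b were higher. The members were thus called about as often as genes in general. The 2 comparisons with shScr share its 5 libraries and are not independent of each other.

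**Figure D2:**
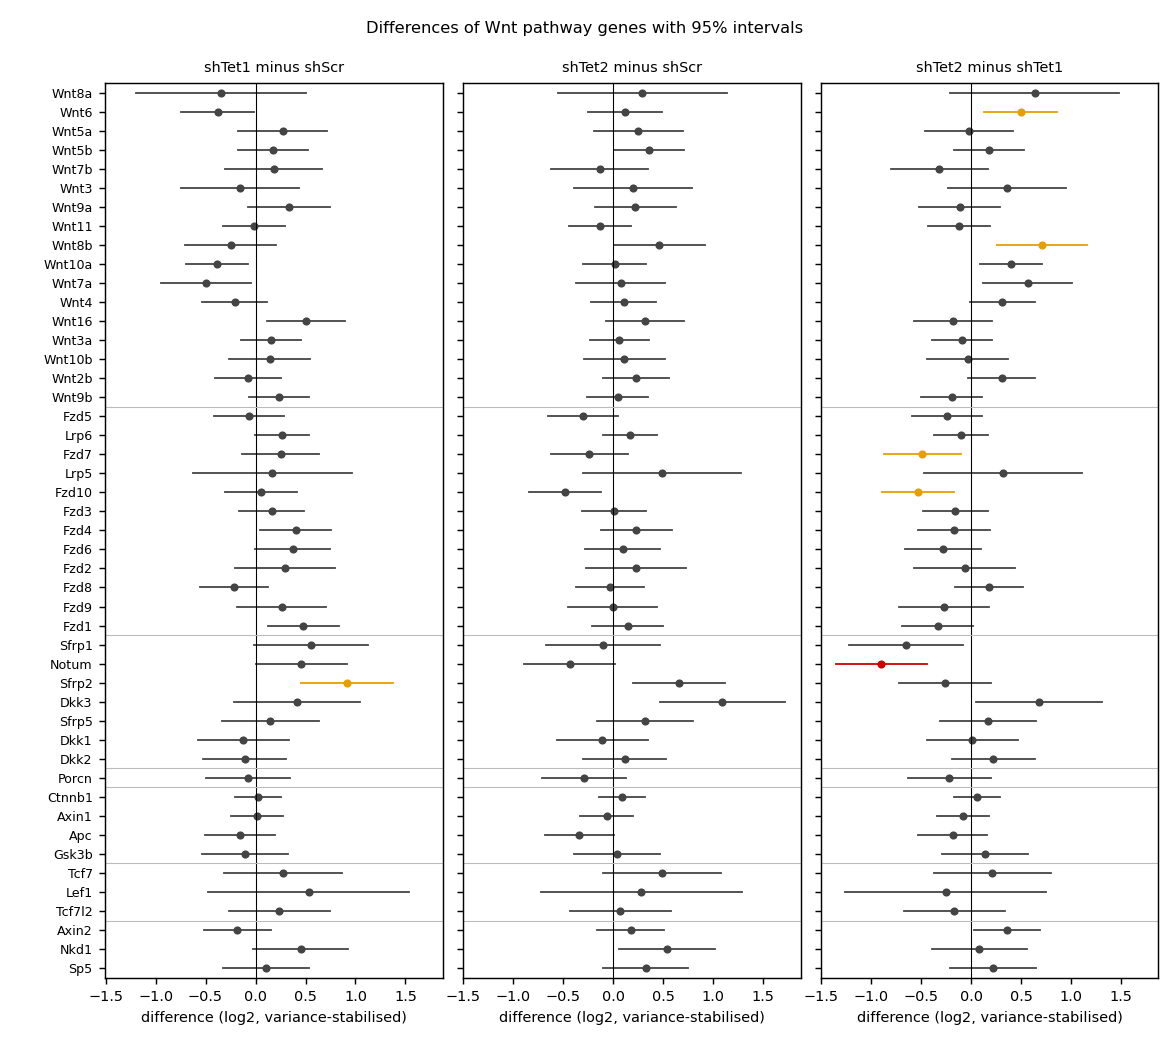
Differences of the 47 Wnt pathway genes tested, on the variance-stabilised log2 scale, with 95% intervals from limma over 5 libraries per group, in the order of the plot of levels. Red marks an adjusted p under 0.05, and orange marks genes that passed only with the replicate block, which is drawn for the first and the third comparison. Sfrp2 and Dkk3 passed with the block in the second comparison and are not in orange there. Notum in the third panel, at -0.90, is the single red gene, and intervals of most other members include 0.

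In each of the 3 comparisons, the largest difference among the 47 members tested on the variance-stabilised scale belonged to a secreted inhibitor: Sfrp2, Dkk3 and Notum. That scale understates differences of scarce genes, and some scarce ligands differed by larger factors in normalised reads. Wnt16 in shTet1 was at 379% of shScr, against 221% for Sfrp2, and Wnt8b averaged 2.65 in shTet1 and 13.5 in shTet2. Notum (chromosome 11, 120515102 to 120522489, minus strand, mm9) had 411, 443, 536, 547 and 467 normalised reads in shTet1 and 264, 289, 242, 158 and 271 in shTet2, for replicates 1 to 5. In shScr it had 447, 567, 302, 192 and 292. The 5 shTet1 libraries were above the 5 shTet2 libraries without overlap, and shScr spread over both. Group means were 481 ± 59.3 for shTet1 and 245 ± 51.2 for shTet2 (SD over 5 libraries). The difference of shTet2 from shTet1 was -0.90 on the log2 scale (SE 0.22, 95% interval -1.35 to -0.44, limma, Benjamini-Hochberg adjusted p = 0.0216). The two-sided exact permutation p was 0.00794, the smallest that 5 against 5 libraries can give, and shTet2 was lower in 5 of 5 same-numbered pairs.

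Neither knockdown differed detectably from the control in Notum. The difference from shScr was 0.46 in shTet1 (95% interval 0.0047 to 0.91, limma, Benjamini-Hochberg adjusted p = 0.416) and -0.44 in shTet2 (-0.89 to 0.02, adjusted p = 0.454). The call between the knockdowns held in 24 of 28 alternative settings, but it was lost without some single libraries. The adjusted p was 0.0556 without shTet1 replicate 3, 0.0571 without shTet1 replicate 4 and 0.0645 without shTet2 replicate 4. Without the 4 libraries that stood apart, the difference was -0.66 with an adjusted p of 0.156. It was -0.57 among libraries numbered 1 and 2 and -1.11 among those numbered 3 to 5. Exons of 4732444A12Rik, on the opposite strand, cover 29.4% of the exon bases of Notum. That gene had 18.2 to 54.9 normalised reads in shTet1 and 13.7 to 32.4 in shTet2, so that it was scarce beside Notum, and whether the counting used strand was not stated.

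Sfrp2 (chromosome 3, 83570243 to 83578238, plus strand, mm9) encodes a secreted decoy receptor and is the CpG-rich gene shown above. It had 187, 127, 107, 103 and 146 normalised reads in shScr and 458, 405, 201, 210 and 210 in shTet1. In shTet2 it had 237, 240, 293, 178 and 200. The shTet1 libraries were above the shScr libraries without overlap, and most clearly so for replicates 1 and 2. Group means were 134 ± 34.3 for shScr and 297 ± 125 for shTet1 (SD over 5 libraries), or 221% of the control. The difference of 0.92 (SE 0.22, 95% interval 0.46 to 1.38) missed the threshold in limma (Benjamini-Hochberg adjusted p = 0.0941) and passed it with the replicate block (SE 0.17, adjusted p = 0.0092). It also passed without shTet1 replicate 5 (adjusted p = 0.0471) and with the share of reads in olfactory and vomeronasal receptor genes as a covariate (adjusted p = 0.0327). In all, it passed in 4 of 28 alternative settings, and its adjusted p over them reached 0.266. Without the 4 libraries that stood apart, the difference was 1.11 with an adjusted p of 0.229.

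In shTet2, Sfrp2 averaged 230 ± 44.0 (SD, n = 5), and its difference from shScr was 0.65 (95% interval 0.20 to 1.11, limma, Benjamini-Hochberg adjusted p = 0.218). The 2 knockdowns did not differ detectably from each other, with a difference of -0.26 (-0.72 to 0.19). In each knockdown, Sfrp2 was above the control in 5 of 5 same-numbered pairs, although the ranges of shTet2 and shScr overlapped. The difference between shTet2 and shScr passed in 2 of 28 alternative settings, both with the replicate block. Exons of Gm16790 on the opposite strand cover 16.1% of those of Sfrp2, and that gene had 4.11 to 25.1 normalised reads over all libraries.

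Dkk3 encodes a divergent member of the Dickkopf family, whose other members block LRP5 and LRP6. It had 94, 60, 141, 122 and 83 normalised reads in shScr and 332, 319, 129, 310 and 199 in shTet2. In shTet1 it had 327, 191, 89, 114 and 74. Of the shTet2 libraries, 4 were above each shScr library, and replicate 3 lay among them. Group means were 100 ± 31.7 for shScr and 258 ± 89.6 for shTet2 (SD over 5 libraries). The difference of 1.09 (SE 0.30, 95% interval 0.46 to 1.72) was the largest of any member on this scale. It missed the threshold (limma, Benjamini-Hochberg adjusted p = 0.119), with an exact permutation p of 0.0159. The difference passed in 3 of 28 alternative settings, namely array weights and the replicate block without and with the receptor-gene share. Its adjusted p over the 28 settings reached 0.305, and it did not pass without the 4 libraries that stood apart, which include shTet2 replicate 4.

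Dkk3 in shTet1 averaged 159 ± 104 (SD, n = 5), a difference from shScr of 0.41 (95% interval -0.21 to 1.04). That difference was 1.38 among libraries numbered 1 and 2 and -0.23 among those numbered 3 to 5. Sfrp1 behaved likewise in shTet1, where replicate 1 had 1575 normalised reads and the others 634 to 795, against 364 to 1014 in shScr. Its difference of 0.55 (-0.02 to 1.12) did not pass. The other inhibitors, Sfrp5, Dkk1 and Dkk2, had intervals that included 0 in each comparison.

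**Figure D3:**
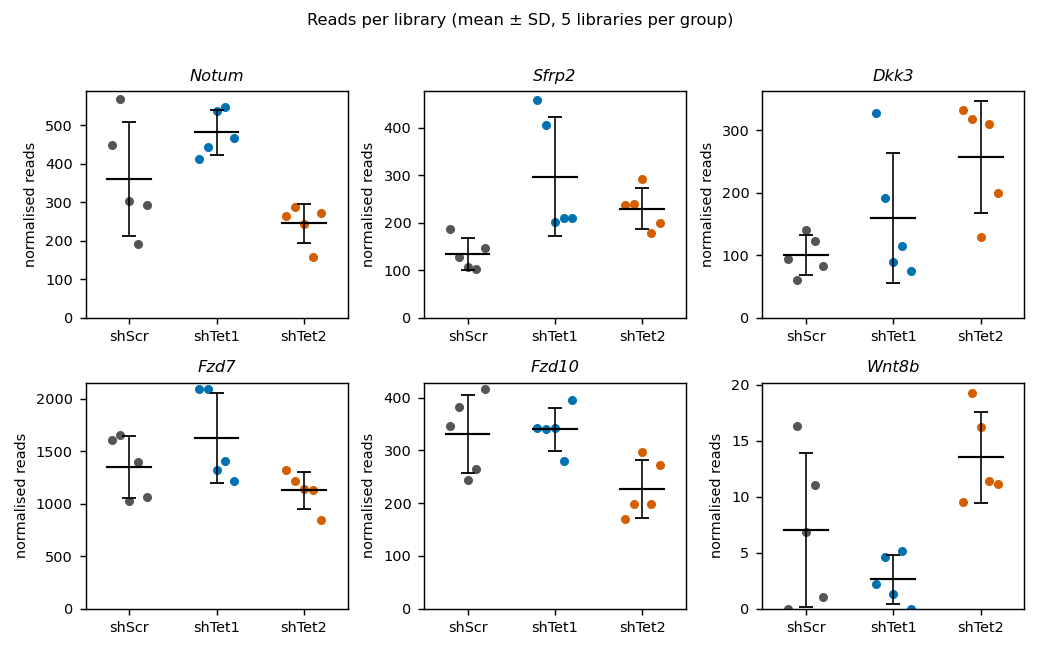
Normalised reads (linear axis from 0) of 6 Wnt pathway genes in each of 15 libraries, grouped as shScr, shTet1 and shTet2 with replicates 1 to 5 from left to right. Black bars are the mean ± SD of 5 libraries. Notum separates shTet1 (411 to 547) from shTet2 (158 to 289), Sfrp2 separates shScr (103 to 187) from shTet1 (201 to 458), and Wnt8b stays under 20 reads.

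Of the 12 receptors, 10 had a difference above 0 between shTet1 and shScr, 7 between shTet2 and shScr and 2 between shTet2 and shTet1, and 0 passed the threshold in any. These comparisons share libraries, and the shares of all genes above 0 were 52.4%, 56.8% and 52.7%. Fzd7 is one of the most abundant Frizzled genes of these cells. It had 2093, 2092, 1323, 1412 and 1221 normalised reads in shTet1 and 1322, 1214, 1139, 1137 and 843 in shTet2. In shScr it had 1607, 1653, 1032, 1403 and 1067. Each shTet2 library was below the shTet1 library of the same number, although the ranges met at shTet2 replicate 1. The difference of -0.49 (SE 0.18, 95% interval -0.87 to -0.10) had an adjusted p of 0.17 in limma, and 0.0057 with the replicate block (SE 0.10). The difference was -0.63 (adjusted p = 0.238) without the 4 libraries that stood apart.

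Fzd10 showed a similar order. It had 342, 340, 342, 279 and 395 normalised reads in shTet1, and 170, 198, 297, 198 and 272 in shTet2. In shScr it had 347, 383, 244, 265 and 416. Of the shTet2 libraries, replicates 1, 2 and 4 were below each library of both other groups. The difference between the knockdowns was -0.53 (SE 0.17, limma, Benjamini-Hochberg adjusted p = 0.0962), and 0.0235 was the adjusted p with the replicate block. The difference was -0.57 (adjusted p = 0.245) without the 4 libraries that stood apart. Relative to shScr it was -0.48 in shTet2 (95% interval -0.84 to -0.12, adjusted p = 0.248) and 0.05 in shTet1 (-0.31 to 0.41). The annotation holds a second record of the same symbol that shares 74.8% of these exon bases.

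Fzd1, the scarcest receptor, had 4 to 21 normalised reads in shScr, 18 to 31 in shTet1 and 9 to 23 in shTet2. Its difference between shTet1 and shScr was 0.48 (SE 0.17, 95% interval 0.12 to 0.83) with an adjusted p of 0.249 in limma. The most abundant receptor gene, Fzd5, differed from shScr by -0.06 (-0.41 to 0.29) in shTet1 and -0.30 (-0.65 to 0.05) in shTet2, and Lrp6, the next, by 0.26 (-0.0042 to 0.53) and 0.17 (-0.10 to 0.43). Lrp5 varied most between replicates, with 187 to 999 normalised reads in shTet1 alone, and its intervals included 0.

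Differences of the ligands rested on low counts, and 0 of the 17 tested passed the threshold in any comparison. Wnt8b had 2, 5, 1, 5 and 0 normalised reads in shTet1 and 9, 19, 16, 11 and 11 in shTet2. In shScr it had 0, 16, 7, 11 and 1, which spanned both. The shTet2 libraries were above the shTet1 libraries without overlap, at means of 13.5 ± 4.07 and 2.65 ± 2.20 (SD, n = 5 each). The difference of 0.71 (SE 0.22, 95% interval 0.26 to 1.16) missed the threshold in limma (Benjamini-Hochberg adjusted p = 0.0729) and passed it with the replicate block (adjusted p = 0.0105). The difference was 0.80 (adjusted p = 0.195) without the 4 libraries that stood apart. Wnt8b encodes a ligand of the beta-catenin branch known from the developing forebrain, and its promoter window is the CpG-poor one shown above.

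Wnt6 had 11, 21, 6, 8 and 28 normalised reads in shTet1 and 31, 40, 31, 22 and 23 in shTet2. In shScr it had 27, 35, 25, 21 and 18, which overlapped both. The difference between the knockdowns was 0.50 (SE 0.18, limma, Benjamini-Hochberg adjusted p = 0.141), and the adjusted p with the replicate block was 0.0498. The difference was 0.34 (adjusted p = 0.565) without the 4 libraries that stood apart. Wnt10a reached at most 3.83 normalised reads in a shTet1 library and at least 3.85 in a shTet2 library, so that its groups did not overlap by a narrow margin, and the adjusted p was 0.168. Together with Notum and Wnt8b this made 3 of 47 members without overlap between shTet2 and shTet1, or 6.38%, beside 6.04% of all genes tested whose groups did not overlap.

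Wnt16, which had 0 to 6 normalised reads in shScr and 2 to 20 in shTet1, had a difference of 0.50 (SE 0.19, limma, Benjamini-Hochberg adjusted p = 0.272). Wnt8a, the most abundant ligand, had 86, 130, 26, 7 and 26 normalised reads in shScr. Its shTet1 libraries had 14, 57, 47, 16 and 17, and its shTet2 libraries 113, 135, 44, 15 and 37. In shScr and shTet2 its high libraries were replicates 1 and 2. None of its differences passed. Porcn encodes the enzyme that attaches the lipid to Wnt ligands in the endoplasmic reticulum. Its difference of -0.29 between shTet2 and shScr (95% interval -0.71 to 0.13) did not pass, with an adjusted p of 0.64 in limma.

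In the beta-catenin machinery, 0 of 4 genes passed the threshold in any comparison, and 0 had an unadjusted p under 0.05. Ctnnb1 had 25396 to 30182 normalised reads in shScr, 26203 to 31566 in shTet1 and 27222 to 30960 in shTet2. Its differences from shScr were 0.03 (95% interval -0.20 to 0.26) in shTet1 and 0.09 (-0.14 to 0.32) in shTet2, so that differences beyond 0.32 on the log2 scale lay outside both intervals. Axin1 differed by 0.01 (-0.25 to 0.28) and -0.07 (-0.33 to 0.20). Gsk3b differed by -0.10 (-0.53 to 0.33) and 0.04 (-0.39 to 0.47). Apc had the widest shift of this role, at -0.34 (-0.69 to 0.01) in shTet2, where replicate 1 had 3291 normalised reads and replicate 3 had 6698. Beta-catenin is regulated mainly through protein stability, which RNA-seq does not measure.

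The 3 TCF/LEF factors varied widely among the libraries of a group. Lef1 had 728, 410, 113, 109 and 240 normalised reads in shScr and 1057, 430, 276, 170 and 354 in shTet1. In shTet2 it had 471, 279, 667, 123 and 263. Libraries numbered 1 and 2 exceeded those numbered 3 to 5 by 1.69 in shScr, 1.29 in shTet1 and 0.31 in shTet2 on the log2 scale. Its differences from shScr were 0.53 (95% interval -0.47 to 1.54) in shTet1 and 0.28 (-0.72 to 1.28) in shTet2, and both intervals included 0. In each same-numbered pair Lef1 was higher in shTet1 than in shScr, but this difference did not pass with the replicate block either. The pairs of shTet2 and shScr went both ways. Tcf7 differed by 0.27 (-0.32 to 0.86) and 0.49 (-0.10 to 1.07), with 989 normalised reads in shTet2 replicate 3 against 307 to 447 in shScr. Tcf7l2 differed by 0.24 (-0.27 to 0.74) and 0.07 (-0.43 to 0.57).

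Feedback targets serve as a readout of pathway activity. The 3 of that role, Axin2, Nkd1 and Sp5, had differences above 0 between shTet2 and shScr and between shTet2 and shTet1, and 2 of 3 had one between shTet1 and shScr, but 0 passed the threshold in any comparison. Axin2 had 276, 199, 214, 253 and 312 normalised reads in shScr and 264, 232, 204, 187 and 192 in shTet1. In shTet2 it had 245, 228, 370, 280 and 321. The groups overlapped throughout. Its differences from shScr were -0.18 (95% interval -0.52 to 0.15) in shTet1 and 0.18 (-0.16 to 0.51) in shTet2. The knockdowns differed by 0.36 (0.03 to 0.69, limma, Benjamini-Hochberg adjusted p = 0.27).

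Nkd1, which encodes an inhibitor that acts on Dishevelled, had 23, 15, 19, 36 and 8 normalised reads in shScr. It had 45, 48, 20, 44 and 25 in shTet1 and 62, 45, 24, 63 and 17 in shTet2. Its difference from shScr was 0.45 (95% interval -0.03 to 0.93) in shTet1 and 0.53 (0.06 to 1.01) in shTet2, with limma adjusted p-values of 0.459 and 0.368. In each knockdown, 5 of 5 same-numbered pairs had Nkd1 higher. Sp5, with 1 to 24 normalised reads per library, differed by 0.10 (-0.32 to 0.53) and 0.32 (-0.10 to 0.75). Of the 6 genes taken as targets (Axin2, Lef1, Tcf7, Sp5, Nkd1 and Notum), 5 had a difference above 0 in each knockdown against shScr. The exception was Axin2 in shTet1 and Notum in shTet2, and 0 of the 6 passed the threshold in either.

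**Figure D4:**
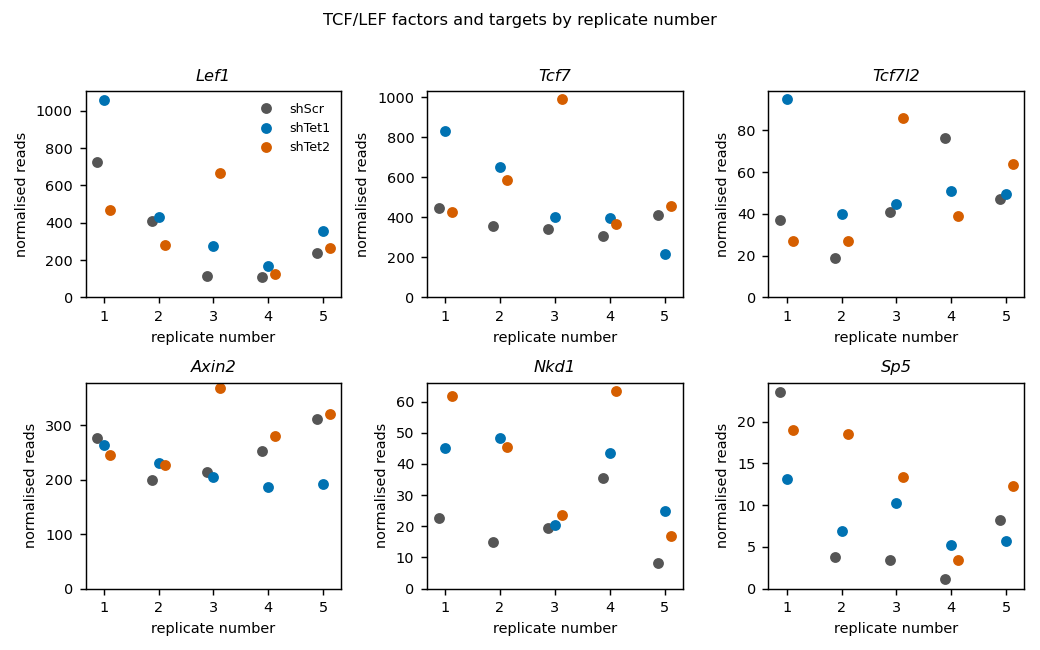
Normalised reads (linear axis from 0) of 3 TCF/LEF factors and 3 feedback targets against replicate number, with 1 point per library and the colour giving the hairpin. Replicate numbers are names and have no order. Lef1 is highest in replicate 1 of shScr (728) and shTet1 (1057), and in shTet2 replicate 3 stands highest for Lef1 (667), Tcf7 (989) and Axin2 (370).

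A further 52 pathway genes that the rule left out (agonists, other receptors, Dishevelled, casein kinases, planar polarity genes and others) were listed by role, and 51 were tested. Against shScr, 0 of 51 passed in shTet1 and 0 in shTet2, beside 0.0718% and 0.39% of all genes. Their median differences were 0.09 and 0.05, beside 0.01 and 0.04 over all genes. Between the knockdowns 1 of 51 passed, beside 4.24% of all genes. This was Ryk, which encodes an atypical Wnt receptor of the receptor tyrosine kinase family. Ryk had 1204, 1346, 1179, 977 and 1203 normalised reads in shTet1 and 1782, 1783, 1825, 1456 and 1851 in shTet2, without overlap. It rose by 0.55 (SE 0.15, 95% interval 0.23 to 0.86, limma, Benjamini-Hochberg adjusted p = 0.0475), and its adjusted p over the settings tried ran from 0.0105 to 0.209.

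Ryk had 1762, 1020, 1750, 1383 and 1810 normalised reads in shScr, which overlapped both knockdowns, and it passed in 12 of 28 alternative settings. It missed the threshold when any 1 library was left out, except for shScr replicates 2 and 4 and shTet2 replicate 4. Without the 4 libraries that stood apart, the difference of Ryk was 0.52 with an adjusted p of 0.209. With the replicate block, Csnk1e (0.70) and Prickle2 (0.65) passed between shTet1 and shScr, or 2 of 51, beside 4.8% of all genes. Nkd2, Prickle1 and Prickle2 passed between shTet2 and shScr, or 3 of 51, beside 840 of 19490 genes. Wls (0.54), Ryk, Vangl1 (-0.42) and Prickle1 (0.67) passed between shTet2 and shTet1, or 4 of 51, beside 11.2% of all genes. Wls, which carries Wnt ligands to the cell surface, had 93, 113, 125, 268 and 221 normalised reads in shTet1 and 116, 142, 210, 517 and 388 in shTet2. It was low in replicates 1 and 2 of each group, and higher in shTet2 than in shTet1 in 5 of 5 same-numbered pairs. Without the block its adjusted p in limma was 0.61, and it passed in 2 of 28 alternative settings, both with the block. Tcf7l1, the main repressor of the family in ESCs, differed from shScr by -0.10 (95% interval -0.71 to 0.52) in shTet1 and 0.05 (-0.57 to 0.66) in shTet2. Znrf3, a feedback target whose product removes Frizzled from the cell surface, differed by -0.01 (-0.41 to 0.39) and -0.20 (-0.60 to 0.20).

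Marker genes of cell types differed between the same groups in their sums or signs. Of the 10 ESC markers, 10 had a difference below 0 between shTet2 and shTet1 (median -0.41, 1 past the threshold), 8 below 0 between shTet2 and shScr (median -0.15, 0 past it) and 9 above 0 between shTet1 and shScr (median 0.26, 0 past it). Their summed normalised reads, 93147 to 114419 in shTet2 and 116043 to 143797 in shTet1, did not overlap. Of the 8 primitive endoderm markers, 8 had a difference below 0 from shScr in shTet2 (median -0.66) and 8 in shTet1 (median -0.26), as had 7 between shTet2 and shTet1 (median -0.41), with 0 past the threshold in each. Their sums were 2711 to 5251 for shScr, 2629 to 3609 for shTet1 and 2146 to 3682 for shTet2. The 8 primitive streak and mesoderm markers, of which 7 averaged under 10 normalised reads, had sums of 131 to 216 for shTet1 and 58.8 to 127 for shScr. Neural ectoderm, fibroblast and trophoblast sums overlapped between groups in every comparison. Between shTet2 and shTet1, 1 of 8 trophoblast markers and 1 of 8 primitive streak and mesoderm markers passed the threshold, beside 4.24% of all genes. Both lists hold Eomes, so these may be the same gene. Of the neural ectoderm and fibroblast markers, 0 passed. In bulk RNA, fewer cells of a type and less RNA per cell cannot be told apart, and the part of these markers in the differences of Notum, Fzd7, Fzd10, Sfrp2, Wnt6, Wnt8b and Ryk was not tested.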

How the data were processed

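RNA of 15 libraries (3 groups of 5, assigned from the shRNA label) was analysed as deposited. The authors trimmed reads with Trim Galore 0.3.3, aligned them to mm9 with TopHat2 2.0.9, counted them per gene in Seqmonk and applied the variance-stabilising transformation of DESeq2. The gene values deposited by the authors are on a log2-like scale whose minimum of 4.25 stands for 0 reads. When the transformation was undone, 100% of values were whole reads (tolerance 0.01). A deposited repeat table was not used here.

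Groups were compared in limma 3.58.1 (R 4.3.3; lmFit and eBayes with trend) on the values as deposited, in 1 fit over the 15 libraries with group as the only term, for 19490 genes above the minimum in at least 5 libraries. Tests were two-sided, with Benjamini-Hochberg adjustment over those genes and a threshold of 0.05. The fit was tried on simulated reads with the same relative spread for all genes and changes in well-covered genes only. The simulation held no pairing of replicates and no libraries that stood apart, so it does not cover those features of the data. Exact permutation tests compared 5 with 5 libraries. Within groups, reads of any pair of libraries differed by more than counting error (chi-square per degree of freedom at least 21.4), so none was a copy of another.

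The replicate numbers come from the labels. Libraries with the same number deviated together from the group means, with correlations of 0.374 to 0.657 between shTet1 and shScr and of 0.330 to 0.731 between shTet2 and shTet1, so the numbers were taken to pair these libraries. Between shTet2 and shScr the range was 0.008 to 0.769, and the numbers were not taken to pair them. That choice rested on replicate 3 alone, at 0.008, and the other correlations there were 0.400 to 0.769. The numbers taken to pair the other comparisons also link shTet2 to shScr, so the block results are given for this comparison too. Positions and exon lengths are from GENCODE vM1 (mm9), and promoters from RefSeq. Of the 26061 genes, 26036 matched GENCODE by symbol. Precision is limited by the spread between replicates, and intervals and floors from counts cover counting error only.

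The members and all gene lists were chosen with earlier results of these data known. Genes named in the text were those called, in each role the 3 with the smallest p and the 2 with the highest level, the targets, and Tcf7l1, Wls and Znrf3. Further members are named for a level or a group count, and Wnt10a, Csnk1e, Nkd2, Prickle1, Prickle2 and Vangl1 were named after their values were seen. Alternatives covered the filter, variance trend, libraries in the fit, scaling, library weights, the replicate block, the receptor-gene share, voom on recovered reads and leaving out each library. The replicate block with the receptor share, and leaving out 4 libraries, were added after seeing the data.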

Additional observations from a re-analysis of the deposited data

Results flagged for a closer look

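The difference between the 2 knockdowns was past the threshold for Notum (-0.90 on the log2 scale, shTet2 minus shTet1) and for Ryk (0.55). Both are differences between shTet2 and shTet1, and neither gene was past the threshold between a knockdown and shScr.

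Each named gene was also searched within each group for a library far from the other 4, by the gap to its neighbour over the range (Dixon's 95% criterion for 5 libraries). This met the criterion in 6 of 84 sets, and chance gives about 1 in 20. Lrp6 was low in shScr replicate 2, at 2752 normalised reads against 3143 to 3171 in the others. Sfrp1 was high in shTet1 replicate 1, at 1575 against 634 to 795, and Tcf7l2 was high in the same library, at 94.9 against 39.8 to 50.8. Apc was low in shTet1 replicate 5, at 3962 against 5273 to 5890. Ryk was low in shTet2 replicate 4, at 1456 against 1782 to 1851. Tcf7l1 was high in shTet2 replicate 3, at 204 against 36.4 to 62.2.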

How the results depend on the processing

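With the replicate block, 935 genes and 1 member (Sfrp2) were called between shTet1 and shScr, 840 genes and 2 members between shTet2 and shScr, and 2178 genes and 5 members between shTet2 and shTet1. In the second comparison the numbers were not taken to pair the libraries, a choice that rested on replicate 3 alone. Yet 14 of 15 libraries were closest to a library of the same number in another group. The block called Sfrp2 (adjusted p = 0.0413) and Dkk3 (0.0276) there. With the block and the receptor share together, the counts were 928 and 1, 460 and 2, and 1834 and 5. Array weights gave 56 genes, 283 genes with 1 member (Dkk3), and 1246 genes with 4 members. The receptor share as a covariate gave 95 genes and 1 member between shTet1 and shScr. Without the 4 libraries that stood apart, the counts were 1, 13 and 345 genes, with 0 members in each. Fitting only the 2 groups compared gave 3 genes between shTet1 and shScr, and 2 members between shTet2 and shTet1. Quantile normalisation gave 22 genes in the first comparison and 45 in the second (16 higher, 29 lower, against 43 and 33 as reported), where median centring gave 39 (5 higher, 34 lower). Between the knockdowns, median centring gave 437 higher and 327 lower, against 561 and 266 as reported.

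Leaving out 1 library gave 1 to 171 genes and 0 to 1 member between shTet1 and shScr, 10 to 99 genes and 0 members between shTet2 and shScr, and 512 to 902 genes and 0 to 2 members between shTet2 and shTet1. The count of 171 was without shTet1 replicate 5, and the count of 1 was without shScr replicate 2 or shTet1 replicate 1, 2 or 4. The 0 was without shTet1 replicate 3, shTet1 replicate 4 or shTet2 replicate 4, and the 2 were Notum and Wnt8b, without shScr replicate 1 or 2. Between shTet2 and shScr, the count fell by more than 1.5 times when shScr replicate 1, 2, 3 or 5 was left out, and likewise for replicate 3 of shTet1 and replicates 1, 2 and 4 of shTet2, of which replicate 2 gave the 10. Between the knockdowns it did so without shTet1 replicate 1 or 2, or shTet2 replicate 2. Among the genes whose differences were recomputed, none past the threshold in the reported fit or in an alternative had the opposite sign in the other. Tet1 in shTet1 and Tet2 in shTet2 stayed past it against shScr in all 28 alternatives. The cause of these changes was not tested. At this depth, Wnt1 and Wnt2 had too few reads to test.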

Other observations

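Several genes of the pathway differed between libraries by replicate number. Averaged over the 3 groups, libraries numbered 1 and 2 exceeded those numbered 3 to 5 by 1.10 on the log2 scale for Lef1, by 1.02 for Wnt8a and by 0.98 for Lrp5, and they were lower by 1.18 for Wls (-1.18). The sign was the same in each of the 3 groups for these 4 genes. The labels name 2 methods of RNA extraction without saying which library had which. They give no batch for this split, which was noticed in the data and has no test here.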
